A study of Rattus norvegicus with 30 samples.

Results

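Liver at 5 d after partial hepatectomy was compared with liver at 24 h after the same operation, across 388 rat miRNA names. The arrays were chosen by their time label alone. They were 3 arrays at 5 d and 3 arrays at 24 h, which is 6 of the 30 arrays in the series. The tissue was liver of male Wistar rats from which 70% of the organ had been removed, and every group used here had this operation. No sham array and no array at 0 h entered the comparison, so it describes the difference between a late and an early time of regrowth and not a return to the level of unoperated liver. Total RNA that kept the small RNA fraction was hybridised to a febit chip read in 1 colour. On this chip an enzyme extends each bound miRNA with nucleotides that carry biotin. The labels call the 3 samples of a time biological replicates. They do not say whether the animals shared a batch. The RNA came from whole liver, in which fewer cells of a type and less of a miRNA per cell cannot be told apart.

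After a large resection the remaining hepatocytes of the rat, which are normally at rest, copy their DNA at around 24 h. Growth then slows over the following days as the lobes approach their former mass. miRNAs are short RNAs that guide a silencing complex to messenger RNAs, mainly through the seed, bases 2 to 8 of the mature strand. Members of the let-7 family repress growth genes such as Ras genes and Hmga2. miR-26a represses the chromatin enzyme Ezh2 and several cyclins in other systems, and miR-122 is the most characteristic miRNA of hepatocytes.

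The mature sequences below are those of the miRNAs on which the results turn, with the seed in capitals, from RefSeq (rat assembly GRCr8). They are shown because members of one family differ at few bases and may compete for one probe. The probe sequences were not used here, and the strand meant by each older chip name was taken from the renaming of miRNAs. All 21 names looked up had an entry.
miR-26a: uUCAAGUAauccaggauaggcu
miR-26b: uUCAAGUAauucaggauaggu
let-7d: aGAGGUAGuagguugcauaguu
let-7a: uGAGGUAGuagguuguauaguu
let-7b: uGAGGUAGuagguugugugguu
let-7c: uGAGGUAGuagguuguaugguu
let-7e: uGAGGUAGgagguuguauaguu
let-7f: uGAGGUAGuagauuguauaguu
let-7i: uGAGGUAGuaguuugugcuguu
miR-98: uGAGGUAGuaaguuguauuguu
miR-126: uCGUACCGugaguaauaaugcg
miR-23a: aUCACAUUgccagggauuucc
miR-23b: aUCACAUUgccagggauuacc
miR-27a: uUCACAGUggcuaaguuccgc
miR-27b: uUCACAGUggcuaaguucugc
miR-22: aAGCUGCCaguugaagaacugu
miR-122: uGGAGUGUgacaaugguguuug
miR-210: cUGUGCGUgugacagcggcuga

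The 8 let-7 family members carry the seed GAGGUAG. Against let-7d over 22 bases, let-7a has 2 mismatches, let-7c, let-7e and let-7f have 3 each, let-7b and miR-98 have 4 each, and let-7i has 6. miR-26a and miR-26b share UCAAGUA and have 2 mismatches over 21 bases. The pairs miR-23a with miR-23b and miR-27a with miR-27b have 1 mismatch each over 21 bases. Binding of one family member to the probe of another was not tested. In GRCr8 the mature miR-26a sequence lies at chr8:127633063-127633084 on the plus strand, within the span of the protein-coding gene Ctdspl. The mature let-7d sequence lies at chr17:16322273-16322294 on the plus strand, within the long non-coding RNA gene LOC120097935, together with a copy each of let-7a and let-7f.

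Each miRNA had 15 spots per array. A level here is the mean log2 intensity of these spots after background correction and quantile normalization, and a difference is the level at 5 d minus the level at 24 h. The arrays did not stand equal in background. The median raw intensity was 560, 576 and 1152 at 5 d, against 1240, 984 and 1024 at 24 h. Of the 21 hepatectomy arrays in the table, 8 lay between 544 and 608 and 13 between 976 and 1328, so 2 arrays at 5 d belonged to the low class, and replicate 3 at 5 d and all arrays at 24 h to the high class. The signal span of an array, from the median to the 95th percentile of its normalized log2 levels, was 1.62, 1.74 and 1.22 at 5 d, against 1.67, 1.02 and 0.77 at 24 h (means 1.52 ± 0.27 and 1.15 ± 0.46, SD, n = 3 each). An exact two-sided permutation test of the span gave p = 0.3, where 0.1 is the smallest p that 3 against 3 arrays allow. Replicate 3 at 5 d stood apart. Its Spearman correlation with the other 5 arrays was 0.504 to 0.638, whereas those 5 correlated with each other at 0.774 to 0.953. All names were also fitted without it, and both values are given where this ended a call or moved a named miRNA, or a list median above 0.1, by over 1.5 times.

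Between 5 d and 24 h, 2 of 388 miRNAs passed the test (0.515%), miR-26a and let-7d, and both were higher at 5 d. The test was limma's moderated test with Benjamini-Hochberg adjustment over all 388 names at a threshold of 0.05. No miRNA passed as lower at 5 d by limma, where 15 of 388 (3.87%) had an unadjusted p under 0.05. As higher, 20 of 388 (5.15%) had an unadjusted p under 0.05. The median difference over all names was −0.05, the range −0.57 to 1.61, and the median standard error 0.193. Positive differences gathered among the bright names, with 61 of the 97 names above the 75th percentile of level, and 158 of all 388 names. The 7 differences of 1 or more belonged to miR-26a, miR-122, miR-126, miR-22, let-7d, miR-27b and miR-194, and no difference reached −1.

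**Figure D1:**
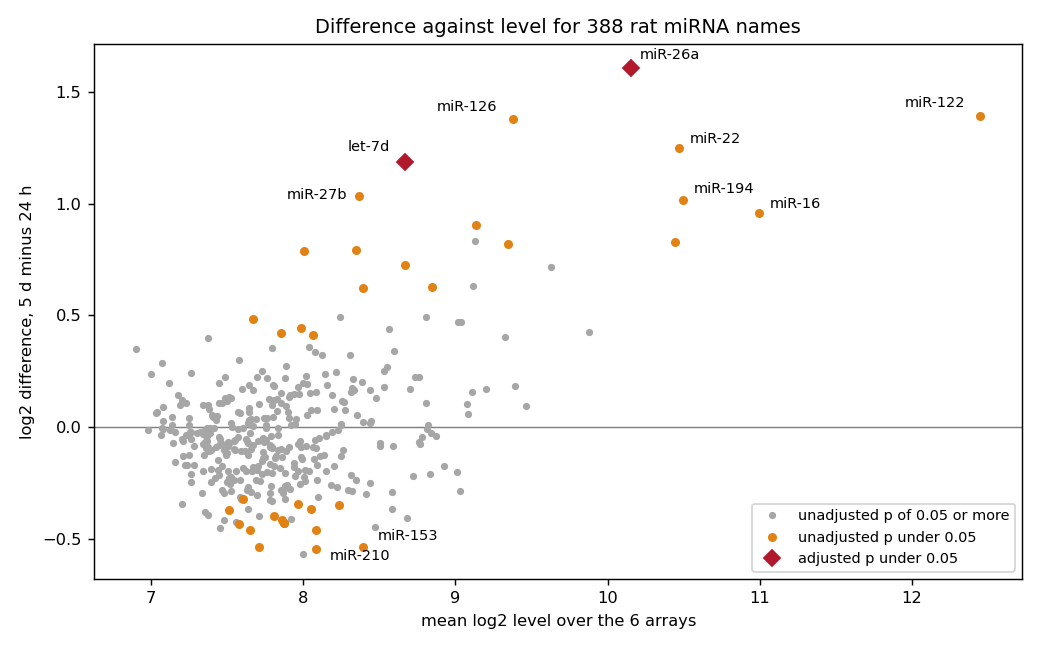
The x axis gives the mean log2 level over the 6 arrays and the y axis the log2 difference, 5 d minus 24 h, with 1 point for each of 388 miRNA names. The 2 miRNAs past the test (diamonds) and the miRNAs at an unadjusted p under 0.05 (orange circles) are marked, and the 7 differences of 1 or more all lie above the median level.

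miR-26a had levels of 10.93, 10.96 and 10.98 at 5 d, against 9.94, 9.41 and 8.70 at 24 h. The arrays at 5 d lay within a few hundredths of each other and above all those at 24 h, which spread more widely, with replicate 3 lowest. The means were 10.96 ± 0.02 at 5 d and 9.35 ± 0.62 at 24 h (SD, n = 3 each). The difference was 1.61 (SE 0.282, 95% interval 1.01 to 2.20, adjusted p = 0.00937 by limma), which is 3.05-fold. The authors' background-subtracted intensities, which are not normalized between arrays, ran the same way at 2641, 2881 and 1217 at 5 d, against 937, 536 and 136 at 24 h. On that scale too the groups did not overlap. Without replicate 3 at 5 d the difference was 1.61 (adjusted p = 0.0481 by limma).

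let-7d had levels of 8.92, 9.47 and 9.41 at 5 d, against 8.13, 8.07 and 8.04 at 24 h. Here the arrays at 24 h were the close ones, and those at 5 d all lay above them. The means were 9.27 ± 0.30 at 5 d and 8.08 ± 0.05 at 24 h (SD, n = 3 each). The difference was 1.19 (SE 0.240, 95% interval 0.68 to 1.69, adjusted p = 0.023 by limma), which is 2.28-fold. On the authors' background-subtracted scale the values were 456, 728 and 356 at 5 d, against 392, 200 and 208 at 24 h. There replicate 3 at 5 d lay below replicate 1 at 24 h, so the groups overlapped before normalization. Without replicate 3 at 5 d the difference was 1.13 and no longer passed (adjusted p = 0.145 by limma).

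Both calls depended on the setting and on single arrays. miR-26a was higher at 5 d under each of the 17 alternative settings, by 0.90 to 2.76, and passed in 11 of them. It was not called with median centring (1.75, adjusted p = 0.414), 75th percentile centring (1.83, adjusted p = 0.617), no normalization (1.72, adjusted p = 0.999) or the authors' background-subtracted medians (1.77, adjusted p = 0.368), all by limma. Nor was miR-26a called without the 3 arrays of the fit that stood apart, 5 d replicate 3 among them (1.63, adjusted p = 0.0762 by limma). let-7d was higher under all 17 settings, by 0.50 to 1.48, and passed in 7. On the high-background arrays alone, where 5 d is replicate 3 only and is assumed to vary like the other groups, the difference was 1.45 for miR-26a (adjusted p = 0.142 by limma). It was 1.26 for let-7d on these arrays (adjusted p = 0.121 by limma). With the background class as a block the difference was 1.40 for miR-26a (adjusted p = 0.0376 by limma) and 0.97 for let-7d (adjusted p = 0.096 by limma). With 1 array left out in turn, miR-26a lost its call without replicate 2 at 5 d (1.59, adjusted p = 0.0558 by limma) and without replicate 3 at 24 h (1.28, adjusted p = 0.0804 by limma). let-7d kept its call only without replicate 1 at 5 d (1.36, adjusted p = 0.0172 by limma). Its adjusted p without replicate 2 or 3 at 5 d was 0.188 or 0.145, and without replicate 1, 2 or 3 at 24 h it was 0.0765, 0.116 or 0.123, all by limma.

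**Figure D2:**
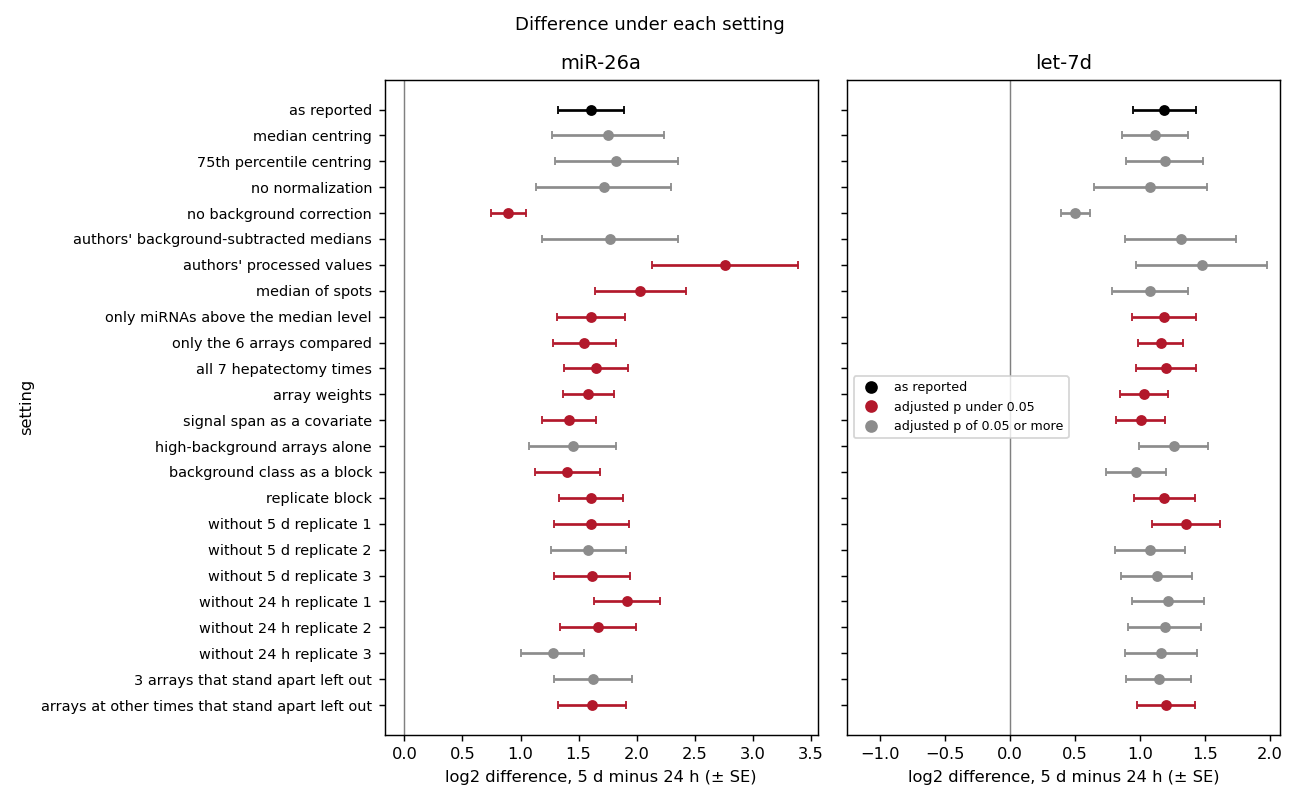
The x axis gives the log2 difference, 5 d minus 24 h, with its standard error, and each line is 1 setting, for miR-26a (left panel) and let-7d (right panel). All points lie above 0, and red points are those past the adjusted threshold of 0.05.

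The other members of the let-7 family lay on the same side as let-7d or near 0. Of 8 members measured, 1 passed the test and 4 had an unadjusted p under 0.05, all higher at 5 d, and the same 4 had arrays that did not overlap between the times. Over all names, 5.15% had an unadjusted p under 0.05 as higher at 5 d. Arrays did not overlap between the times for 16% of all names, and did so as higher at 5 d for 5.67%. The 8 share much of their sequence, so their counts are not separate observations. let-7b had levels of 7.92, 8.46 and 8.83 at 5 d, against 7.65, 7.68 and 7.50 at 24 h. let-7a had levels of 8.68, 9.19 and 9.23 at 5 d, against 8.24, 8.39 and 8.28 at 24 h. let-7c had levels of 8.36, 8.85 and 9.02 at 5 d, against 7.60, 7.94 and 8.31 at 24 h. In all 3 the lowest level at 5 d lay above the highest at 24 h, by the least margin in let-7c. This did not hold on the authors' background-subtracted scale. There let-7b had 136, 224 and 272 at 5 d, against 208, 152 and 56 at 24 h. In let-7a, replicate 3 at 5 d (296) lay below replicate 1 at 24 h (312). In let-7c the lowest value at 5 d and the highest at 24 h were both 240. The differences in level of the 3 were 0.79 (let-7b, adjusted p = 0.164), 0.73 (let-7a, adjusted p = 0.312) and 0.79 (let-7c, adjusted p = 0.312), none past the test by limma.

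In the same family, let-7e differed by 0.40 (adjusted p = 0.751 by limma), let-7f by 0.25 (adjusted p = 0.831) and let-7i by 0.24 (adjusted p = 0.751). miR-98, an X-linked member, differed by −0.01 (adjusted p = 0.989). Without replicate 3 at 5 d these became 0.10 (let-7e), 0.030 (let-7f), 0.066 (let-7i) and −0.30 (miR-98), with adjusted p of 0.595 to 0.966 by limma. The median difference of the 8 was 0.56, beside −0.05 over all names. It stayed positive under all 7 scalings, from 0.18 to 1.29, and was 0.34 without replicate 3 at 5 d, which had the highest level of the 5 d arrays for 7 of the 8 members. let-7a, let-7f and let-7d lie next to each other on chromosome 17 of GRCr8, with 275 bases between the hairpins of let-7a and let-7f and 1671 between those of let-7f and let-7d. Of these 3 neighbours, let-7d and let-7a had arrays that did not overlap, while let-7f did not. Its levels were 8.33, 8.53 and 9.10 at 5 d, against 8.16, 8.43 and 8.62 at 24 h. let-7a and let-7f each have a second copy elsewhere in the assembly, which the chip cannot tell apart.

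miR-26b, which has the seed of miR-26a and lies within the related gene Ctdsp1, did not show the difference of miR-26a. Its levels were 7.61, 7.62 and 8.39 at 5 d, against 7.52, 7.62 and 7.81 at 24 h. Replicate 3 at 5 d was the high array, and the other values overlapped. The difference was 0.22 (SE 0.200, adjusted p = 0.793 by limma), and −0.039 without replicate 3 at 5 d (adjusted p = 0.939 by limma). Whether the differences of miR-26a and miR-26b are themselves unequal was not tested.

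**Figure D3:**
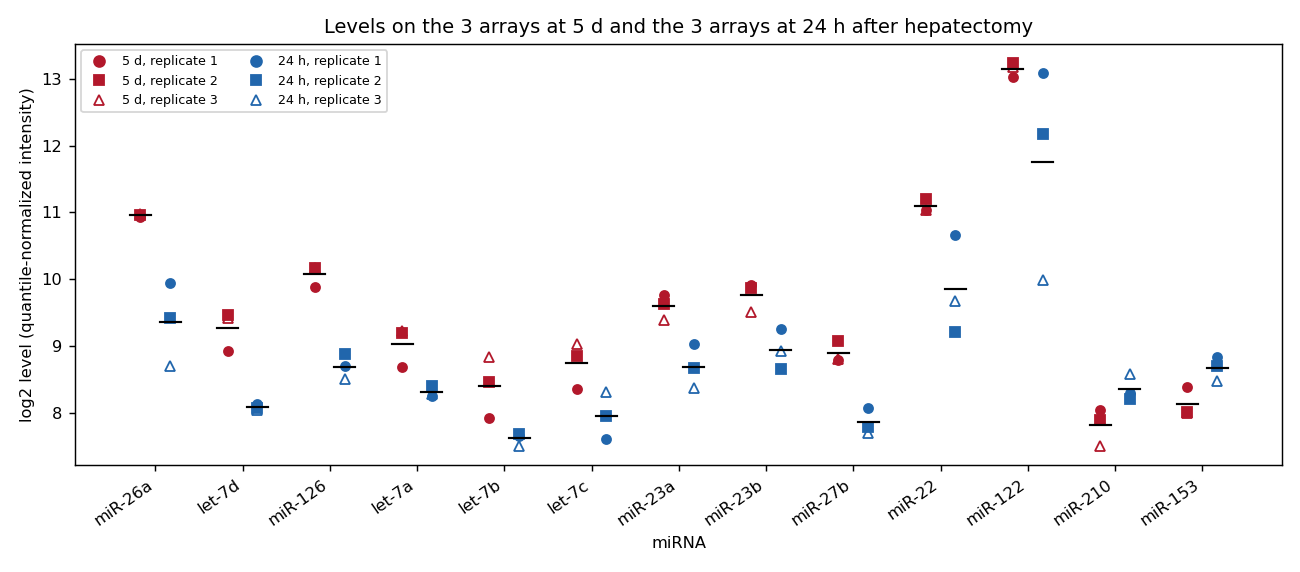
The y axis gives the log2 level on each array for 13 miRNAs, with the 3 arrays at 5 d in red to the left of the 3 arrays at 24 h in blue, replicate 3 as an open triangle, and black bars for the means. For miR-26a the 5 d arrays lie at 10.93 to 10.98, above all 24 h arrays, and for miR-122 the 24 h arrays spread from 9.98 to 13.09.

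miR-126, an endothelial miRNA encoded within Egfl7 that sustains vascular growth signalling, had levels of 9.88, 10.17 and 10.16 at 5 d. At 24 h its levels were 8.69, 8.88 and 8.50. The lowest array at 5 d lay far above the highest at 24 h. The difference was 1.38 (SE 0.348, 95% interval 0.65 to 2.12), which did not pass (adjusted p = 0.124 by limma). It was 1.36 without replicate 3 at 5 d (adjusted p = 0.352 by limma). miR-126 passed when only the 6 arrays were normalized and fitted (1.34, adjusted p = 0.00791), with array weights (1.21, adjusted p = 0.00554) and without the other-time arrays that stood apart (1.39, adjusted p = 0.0417), all by limma. These were the only 3 of the 17 settings in which miR-126 passed. With the background class as a block its difference was 1.09 (adjusted p = 0.294 by limma).

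The other endothelial and stromal miRNAs gave smaller differences. Of the 6 on this list, none passed the test and 1, miR-126, had an unadjusted p under 0.05 as higher. Over all names that share was 5.15%. miR-143, of smooth muscle and stromal cells, differed by 0.47 (adjusted p = 0.793 by limma), with levels of 9.51, 9.58 and 8.72 at 5 d, against 9.53, 8.57 and 8.29 at 24 h. miR-145, its cluster partner, differed by 0.36 (adjusted p = 0.751 by limma). Without replicate 3 at 5 d these were 0.76 for miR-143 (adjusted p = 0.523) and 0.68 for miR-145 (adjusted p = 0.388), by limma. The list's median was 0.26, and 0.09 to 0.54 over the 7 scalings, and 0.50 without replicate 3 at 5 d. Over all 17 settings it ran from −0.09 to 0.54 and was negative in 2. The summed background-subtracted intensity of the 6 was 1188 to 3721 at 5 d, against 1064 to 2905 at 24 h, so on the authors' scale the list as a whole overlapped.

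miRNAs of the miR-23, miR-27 and miR-24 clusters, which act in vascular cells and in lipid metabolism, were all above 0 in difference but none passed. Both clusters hold the same 3 kinds of miRNA close to each other, miR-23b with miR-27b and a copy of miR-24 on chromosome 17 within Aopep, and miR-23a with miR-27a and the other copy on chromosome 19. miR-23b had levels of 9.91, 9.87 and 9.50 at 5 d, against 9.24, 8.65 and 8.92 at 24 h. miR-27b had levels of 8.79, 9.07 and 8.81 at 5 d, against 8.07, 7.79 and 7.70 at 24 h. miR-23a had levels of 9.76, 9.63 and 9.39 at 5 d, against 9.03, 8.66 and 8.36 at 24 h. For each of these 3 miRNAs the arrays of the 2 times were apart in these levels. On the authors' background-subtracted scale they overlapped, with replicate 3 at 5 d below replicate 1 at 24 h in each. The values there were 456 against 704.5 (miR-23b), 224 against 312 (miR-27b) and 336 against 608 (miR-23a). The differences were 0.82 (miR-23b, SE 0.284), 1.04 (miR-27b, SE 0.357) and 0.91 (miR-23a, SE 0.308), each with an adjusted p of 0.336 by limma.

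miR-27a and miR-24 gave smaller values, 0.49 (adjusted p = 0.629 by limma) and 0.18 (adjusted p = 0.942). miR-24 overlapped between the times, at 9.98, 9.62 and 8.85 at 5 d, against 9.86, 8.83 and 9.22 at 24 h. Of the 5 members, 3 had an unadjusted p under 0.05, and 4 had arrays that did not overlap, all higher at 5 d. Over all names the shares were 5.15% and 5.67%. miR-23a and miR-23b differ by 1 mismatch, as do miR-27a and miR-27b, so these counts are not separate observations. The median of the 5 was 0.82, with 0.37 to 1.32 over the 7 scalings, and 0.96 without replicate 3 at 5 d. miR-27b passed when only the 6 arrays were fitted (1.02, adjusted p = 0.0217 by limma). With array weights, miR-27b (1.06, adjusted p = 0.0112), miR-23a (1.04, adjusted p = 0.00664) and miR-23b (1.08, adjusted p = 0.00554) passed by limma. Of the 17 settings, miR-27b passed in 2, and miR-23a and miR-23b in 1 each. With the background class as a block the differences were 0.67 (miR-27b), 0.50 (miR-23a) and 0.44 (miR-23b). Each then had an adjusted p of 0.511 by limma. miR-24 differed by 0.51 without replicate 3 at 5 d (adjusted p = 0.653 by limma).

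The hepatocyte miRNAs served as the check of the tissue. miR-122 was bright on all 6 arrays, with levels of 13.02, 13.24 and 13.18 at 5 d, against 13.09, 12.18 and 9.98 at 24 h. The 5 d arrays were alike, replicate 1 at 24 h stood with them, and replicate 3 at 24 h was far lower. The difference was 1.39 (SE 0.575, adjusted p = 0.49 by limma). It was 0.51 without replicate 3 at 24 h (adjusted p = 0.921 by limma) and 2.06 without replicate 1 at 24 h (adjusted p = 0.137 by limma), the ends of the range with 1 array left out. With the signal span as a covariate it was 0.93 (adjusted p = 0.38 by limma). The authors' background-subtracted intensity of miR-122 was 10595, 14083.5 and 9210 at 5 d, against 11339, 2457 and 1008.5 at 24 h.

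miR-192 and miR-194, a pair of neighbours in the genome that is enriched in liver and gut, spread in the same way at 24 h. miR-194 had levels of 11.06, 11.18 and 10.78 at 5 d, against 10.70, 10.12 and 9.14 at 24 h, a difference of 1.02 (SE 0.479, adjusted p = 0.538 by limma). miR-192 had levels of 10.80, 10.89 and 10.88 at 5 d, against 10.77, 9.94 and 9.37 at 24 h, a difference of 0.83 (SE 0.356, adjusted p = 0.538 by limma). The groups were apart in the levels of both miRNAs, but replicate 1 at 24 h lay close to the 5 d arrays and replicate 3 at 24 h was lowest. On the authors' background-subtracted scale both overlapped, with replicate 3 at 5 d below replicate 1 at 24 h. The values there were 828.5 against 1497 (miR-194) and 937 against 1385 (miR-192). With the authors' background-subtracted medians, normalized, the sign of miR-192 was lost at −0.043. Of the 9 liver-enriched miRNAs none passed the test and 3 had an unadjusted p under 0.05 as higher. Over all names that share was 5.15%. The median of the 9 was 0.21, from −0.04 to 0.27 over the 7 scalings. Over all 17 settings it ran from −0.14 to 0.49 and was negative in 4. The list's median was 0.45 without replicate 3 at 5 d. Replicate 3 at 24 h also had the narrowest signal span of the 6 arrays, 0.77. Without it, miR-194 differed by 0.59 and miR-192 by 0.50, each with an adjusted p of 0.921 by limma. With 1 array left out in turn the range was 0.59 to 1.39 for miR-194 and 0.50 to 1.21 for miR-192. With the span as a covariate the differences were 0.52 (miR-194, adjusted p = 0.44) and 0.48 (miR-192, adjusted p = 0.385), by limma.

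miR-22 and miR-16 were also bright and wide in spread. miR-22, a liver-abundant miRNA, was chosen for mention after its values were seen. It had levels of 11.04, 11.21 and 11.04 at 5 d, against 10.66, 9.21 and 9.67 at 24 h, a difference of 1.25 (SE 0.435, adjusted p = 0.336 by limma). Its sign turned with the authors' background-subtracted medians, to −0.14. miR-16, which represses cyclins and Bcl2, had levels of 11.64, 11.35 and 11.44 at 5 d, against 11.41, 10.49 and 9.66 at 24 h. These overlapped, and the difference was 0.96 (SE 0.448, adjusted p = 0.538 by limma), and 0.52 without replicate 3 at 24 h (adjusted p = 0.921 by limma). The 5 members of the miR-15, miR-16 and miR-195 list had a median of 0.43, from 0.02 to 0.78 over the scalings, and none passed. Over all 17 settings this median was negative in 1, at −0.02. miR-384-3p, among the 8 smallest p on the higher side, differed by 0.48 (SE 0.149, adjusted p = 0.305 by limma). Its levels were 7.99, 7.99 and 7.76 at 5 d, against 7.66, 7.28 and 7.35 at 24 h. The background-subtracted intensities of miR-384-3p were low and overlapped, at 192, 144 and 8 at 5 d, against 216, 24 and 32 at 24 h.

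miRNAs tied to growth, other than miR-26a and let-7d, did not differ past the test. miR-21, which is induced in regenerating liver and represses Pdcd4, had levels of 9.22, 9.48 and 9.60 at 5 d. At 24 h its levels were 9.42, 8.75 and 8.23. The times overlapped, and the difference was 0.63 (SE 0.450, adjusted p = 0.751 by limma). miR-221 and miR-222, neighbours that repress the cell cycle inhibitor p27, differed by −0.21 (adjusted p = 0.751) and −0.22 (adjusted p = 0.793). The list of these 3 thus had a median of −0.21 and a mean of 0.07, of opposite sign. The 12 members of the miR-17-92 cluster and its paralogs, which are driven by Myc and E2F, had a median of 0.08 (−0.0074 to 0.30 over the scalings, and 0.14 without replicate 3 at 5 d). Among them miR-106b differed by 0.44 (adjusted p = 0.538) and miR-17-5p by 0.32 (adjusted p = 0.751; 0.54 without replicate 3 at 5 d). miR-34a, a p53 target, differed by −0.03 (adjusted p = 0.953), all by limma.

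In the remaining families no member passed the test. The 5 miR-30 members, abundant in epithelial cells, had a median of 0.49, from 0.17 to 0.53 over the scalings. miR-30b-5p differed by 0.72 (adjusted p = 0.629 by limma), miR-30d by 0.62 (adjusted p = 0.538) and miR-30c by 0.49 (adjusted p = 0.751). The 3 miR-29 members, which repress collagens, had a median of 0.02, which was negative in 5 of 7 scalings (−0.33 to 0.03), while miR-29a differed by 0.83 (adjusted p = 0.63). miR-125b-5p differed by 0.63 (adjusted p = 0.538), in a list of 4 with a median of 0.05 (−0.05 to 0.40 over the scalings, and −0.052 without replicate 3 at 5 d). The medians were 0.20 for the 3 members of miR-99 and miR-100 and 0.14 for miR-103 with miR-107, whose sign was not stable over the scalings (−0.49 to 0.25). Without replicate 3 at 5 d they were 0.46 and 0.47. The median was −0.05 for the 4 of miR-34 and miR-449, again of unstable sign (−0.14 to 0.30), and −0.07 for the 4 of miR-181 (−0.15 to −0.03). Over all 17 settings the miR-181 median reached 0.15 and was positive in 2.

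**Figure D4:**
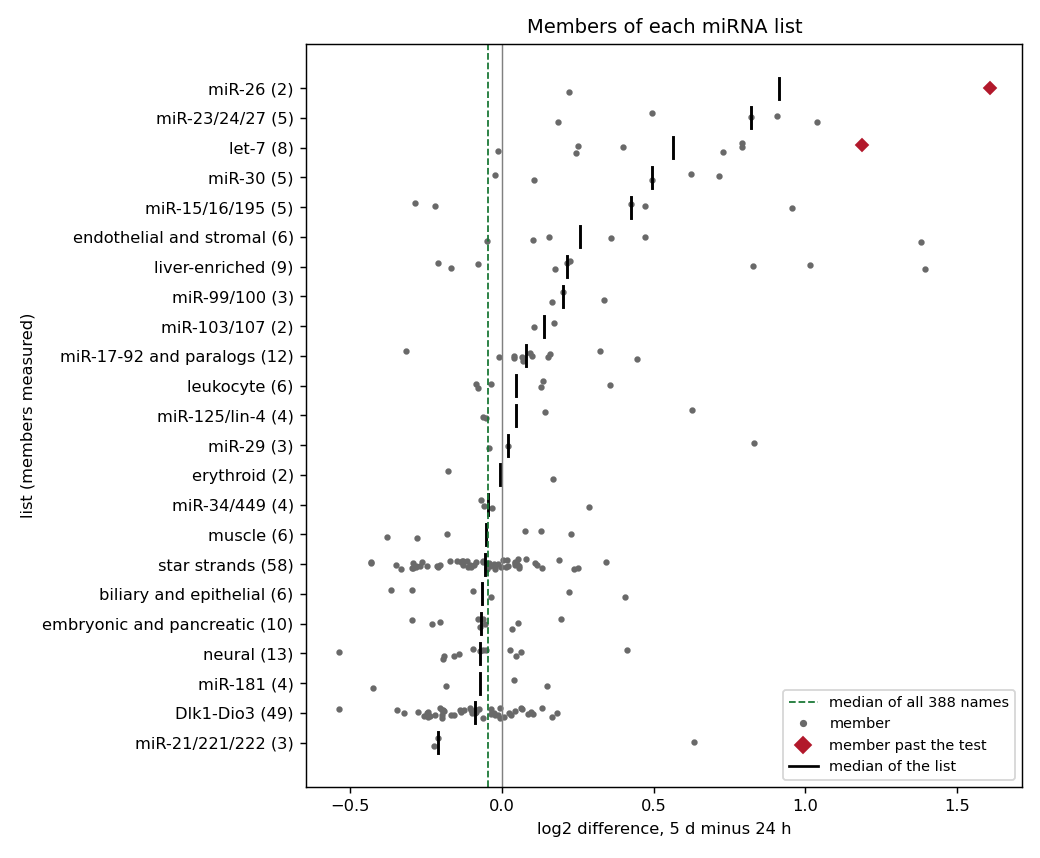
The x axis gives the log2 difference, 5 d minus 24 h, of each member (points) of 23 miRNA lists, with the list's median as a black bar and the median of all 388 names as a dashed line. The lists miR-26, miR-23/24/27 and let-7 have the highest medians, 0.91, 0.82 and 0.56, and the 2 members past the test are diamonds.

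No marker of the other cell types passed the test by limma. The 6 leukocyte miRNAs had a median of 0.05, whose sign was not stable over the scalings (−0.08 to 0.41). Among them miR-223, of neutrophils, differed by 0.13 (adjusted p = 0.891) and miR-146a by 0.35 (adjusted p = 0.629), and by 0.049 and 0.23 without replicate 3 at 5 d. Their summed background-subtracted intensity was 456 to 832 at 5 d, against 624 to 1336 at 24 h. The pair of erythroid miRNAs had a median of −0.01 (−0.10 to 0.10 over the scalings), with sums of 48 to 344 at 5 d, against 192 to 592 at 24 h. The 6 biliary and epithelial miRNAs had a median of −0.07 (−0.43 to −0.03 over the scalings), with sums of 376 to 1736 at 5 d, against 940 to 2425 at 24 h. The 6 muscle miRNAs had a median of −0.05 (−0.13 to 0.07 over the scalings), with miR-1 at −0.28 (adjusted p = 0.793; −0.45 without replicate 3 at 5 d), and sums of 224 to 660 at 5 d, against 556 to 1160 at 24 h. The 13 neural miRNAs had a median of −0.07 (−0.18 to −0.02 over the scalings), with sums of 480 to 2108 at 5 d, against 1344 to 3552 at 24 h. Over all 17 settings the neural median reached 0.11 and was positive in 2. No marker was at or below 0 on all 6 arrays. On some array 5 of the 13 neural and 2 of the 6 muscle miRNAs were at or below 0. So were 1 of the 6 biliary and epithelial and 1 of the 9 liver-enriched miRNAs. The sums overlapped between the times in each of these lists, and also in the liver-enriched list, at 11295.5 to 21733.5 at 5 d, against 3320.5 to 16749 at 24 h.

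On the lower side nothing passed, and the values were small. Arrays that did not overlap and were lower at 5 d were found for 40 of 388 names (10.3%). The smallest p belonged to miR-210, which is induced by low oxygen through HIF and had levels of 8.04, 7.89 and 7.50 at 5 d, against 8.30, 8.20 and 8.58 at 24 h. The groups were apart by less than the spread at either time. The difference was −0.55 (SE 0.169, adjusted p = 0.305 by limma), and −0.40 without replicate 3 at 5 d (adjusted p = 0.388 by limma). The background-subtracted intensities of miR-210 were 208, 152 and −32 at 5 d, against 424, 192 and 240 at 24 h, so replicate 3 at 5 d was below its background. miR-153, a neural miRNA, had levels of 8.39, 8.01 and 7.99 at 5 d, against 8.84, 8.69 and 8.47 at 24 h. Its difference was −0.54 (SE 0.195, adjusted p = 0.398), and −0.47 without replicate 3 at 5 d (adjusted p = 0.388), both by limma.

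The other 6 names taken on this side by smallest p were miR-184, miR-7a*, miR-873, miR-760-3p, miR-10a-3p and miR-540. Their differences ran from −0.54 (miR-540) to −0.42 (miR-10a-3p), with adjusted p from 0.413 to 0.481 by limma. Replicate 3 at 5 d was below background in miR-540 (−136), miR-760-3p (−88), miR-873 (−24) and miR-10a-3p (−12), while at 24 h these 4 had background-subtracted intensities above 0 on all arrays. miR-184 was above background on all 6 arrays, and no background-subtracted value was used for miR-7a*. Of the 15 names at an unadjusted p under 0.05 on this side, 13 lay below the 75th percentile of level, and their median level was 7.87, beside 7.79 over all names and 8.76 for the 20 on the higher side.

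Large lists of dim miRNAs lay slightly below 0. The Dlk1-Dio3 list holds 49 miRNAs of an imprinted cluster that is active mainly in embryo, placenta and brain. None passed, 2 had an unadjusted p under 0.05 as lower, 7 had arrays that did not overlap as lower, and 37 of the 49 differences were negative. Over all names, 3.87% had such a p and 10.3% had such arrays as lower. The list's median was −0.09, beside −0.05 over all names, where 230 of 388 were negative. The 58 star strands, the less abundant strands of their hairpins, had a median of −0.06, with 3 at an unadjusted p under 0.05 as lower. Without replicate 3 at 5 d the medians were −0.13 (Dlk1-Dio3) and −0.11 (star strands). The 10 embryonic and pancreatic miRNAs had a median of −0.07.

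At 48 h, miR-26a averaged 10.33 ± 0.27, let-7d 8.79 ± 0.10 and miR-126 9.13 ± 0.44 (SD, n = 3 each), between their means at 5 d and at 24 h. Against 48 h, the levels at 5 d were higher by 0.63 for miR-26a, 0.47 for let-7d and 0.94 for miR-126, each with an adjusted p of 0.915 by limma. None of 388 miRNAs passed between 5 d and 48 h by limma, and 12 (3.09%) had an unadjusted p under 0.05. This comparison shares the 5 d arrays with the one against 24 h. At 2 h, miR-26a averaged 11.14 ± 0.05 and let-7d 9.17 ± 0.46 (SD, n = 3 each), which are close to their means at 5 d of 10.96 and 9.27. The mean of each at 24 h was the lowest of the 6 times, and that of miR-210 at 24 h was its highest. None of these comparisons with 2 h was tested.

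**Figure D5:**
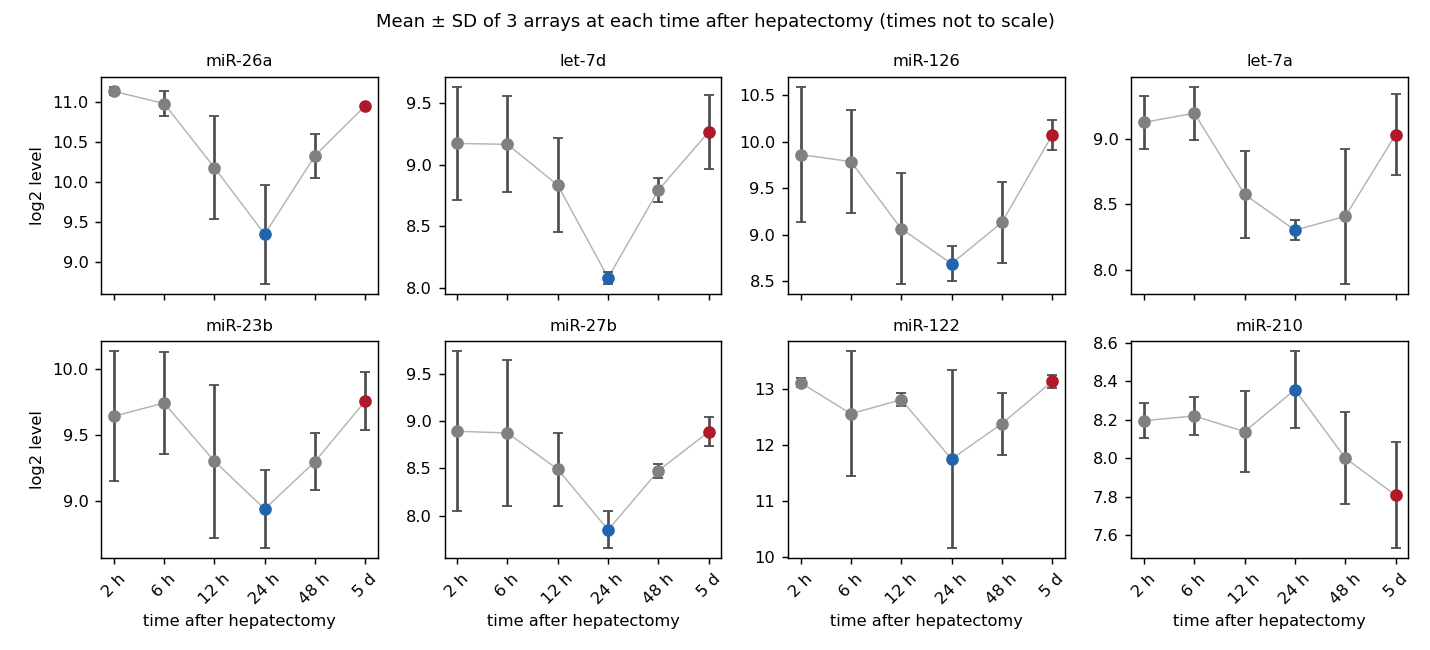
The y axis gives the mean log2 level (± SD, 3 arrays) of 8 miRNAs at 2, 6, 12, 24 and 48 h and 5 d after hepatectomy, with the times not to scale, 24 h in blue and 5 d in red. miR-26a averaged 9.35 at 24 h, 10.33 at 48 h and 10.96 at 5 d, and let-7d averaged 8.08, 8.79 and 9.27 at the same times.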

How the data were processed

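miRNAs were measured in 6 of the 30 liver RNA samples described above, and the fit held the 18 arrays at 2, 6, 12, 24 and 48 h and 5 d. The authors deposited raw spot intensities, a background-subtracted intensity per miRNA and a processed value on a log2 scale. On the 6 arrays, each deposited background-subtracted intensity was the spots' median less a value fixed for the array. These 2 derived tables cover 323 names. No source used here gives the image software or the authors' normalization.

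From the deposited raw intensities, background was corrected with normexp (offset 50), log2 values were quantile normalized, and the 15 spots of a name were averaged, with limma 3.58.1 in R 4.3.3. lmFit and eBayes gave two-sided p values for 388 names (12 residual degrees of freedom), adjusted by Benjamini-Hochberg. The number of arrays limits the precision, and missing spots (0.0859% to 1.01% on the 6 arrays) were left out. Probes have no detection flag. Quantile normalization gives every array the same distribution of spot values, which can narrow the spread of bright miRNAs. The levels averaged from these spots need not share one distribution, and their signal span ran from 0.77 to 1.74 on the 6 arrays. P values rest on the spread between samples of the same time, pooled over the 18 arrays in the fit and moderated across names. They do not rest on the spread of the 6 compared arrays alone.

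The miRNAs named were, in each direction, those past the threshold, filled up to 8 by smallest p, a set of 14 regularly followed miRNAs, and up to 4 members of each list. The miRNAs and lists were chosen with earlier results of these data known. The tests were checked on simulated data. Alternatives covered normalization, background, averaging of spots, dim names, arrays in the fit, array weights, signal span, background class, replicate block and each array left out. The 7 scalings given for lists were those of normalization, background and averaging of spots, including the authors' derived values. The alternatives without the 3 arrays that stood apart (median Spearman correlation under 0.6 with the others: 6 h replicate 2, 48 h replicate 2 and 5 d replicate 3), or without the 2 of them at other times, were chosen after seeing the data.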

Additional observations from a re-analysis of the deposited data

How the results depend on the processing

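The count of 2 calls, both higher at 5 d, was 0 with median centring, 75th percentile centring, no normalization, the authors' background-subtracted medians, the high-background arrays alone, or without the 3 arrays that stood apart (69 names then had an unadjusted p under 0.05 by limma). It was 1 without background correction, with the authors' processed values, the median of spots, or the background class as a block. It was 2 above the median level, with all 7 hepatectomy times, the signal span as a covariate, or the replicate block, and 3 without the other-time arrays that stood apart. It was 4 with only the 6 arrays and 17 with array weights, 13 of them higher and 4 lower, and no other setting gave a lower call. Leaving out 1 array gave 0 to 3 calls, all higher, with 3 without 5 d replicate 1, 0 without 5 d replicate 2 or 24 h replicate 3, and 1 without each other array. The cause of these changes was not tested. With the replicate block the difference was 1.61 for miR-26a (adjusted p = 0.00967 by limma) and 1.19 for let-7d (adjusted p = 0.0222), and it changed no call. The replicate numbers are in doubt for 2 h replicates 1 and 2 and 48 h replicates 1 and 3. On these arrays the raw median less the authors' background-subtracted value was fixed for only 4.33% (2 h) and 2.79% (48 h) of names. The deviations of same-numbered arrays correlated at 0.324, −0.293 and 0.443. These values cannot tell whether same-numbered arrays shared a batch, which the labels do not say either. let-7b passed without 5 d replicate 1 (1.03, adjusted p = 0.0172 by limma). Of 703 values of single miRNAs under the alternatives, 10 turned sign, and the cause was not tested. miR-34a turned to 0.44 with the authors' background-subtracted medians, 0.35 with their processed values and 0.074 when spots were summarised by the median. With 1 array left out it ran from −0.088 to 0.026, and was positive only without 5 d replicate 2. miR-17-5p turned to −0.10 and miR-1 to 0.042 on the high-background arrays alone, and to −0.023 and 0.00303 with the background class as a block. miR-192 turned to −0.043 and miR-22 to −0.14 with the authors' background-subtracted medians. The processed values moved the median of all names by 0.107, to 0.06. With 3 arrays a time and a median standard error of 0.193, small differences could not be resolved, and the low-background arrays at 5 d have no counterpart at 24 h.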
